A study of Tupaia belangeri chinensis with 36 samples.

Results

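The OSVZ (outer subventricular zone) and the IZ (intermediate zone) of the fetal Chinese tree shrew cortex were compared at embryonic day 28 (E28). They lie on either side of the outer border of the germinal zone. The members were the 4 libraries that the labels assign to the E28 OSVZ (2 libraries) and the E28 IZ (2 libraries), of 36 in the series. All 76871 features of the annotation were counted in each. Both groups came from fetal cortex, and the labels give no genotype, treatment or animal for any library. The layers were cut from stained frozen sections by laser capture microdissection, so each library is the poly-A RNA of all cells in the cut area. The same border at E42, with 2 libraries of each layer, served for comparison. The VZ (ventricular zone), ISVZ (inner subventricular zone), CP (cortical plate) and MZ (marginal zone) of E28, with 2 libraries each, gave the levels on both sides of the border. P-values measure the spread between these samples, which may be technical. The study's reporting summary speaks of biological replicates for its experiments in general, and nothing in the labels ties these libraries to separate animals.

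Cortical neurons are born in the germinal zone, from radial glia and the intermediate progenitors they give rise to. In gyrencephalic species and in the tree shrew the subventricular zone has an outer part, the OSVZ, which holds basal radial glia and intermediate progenitors. Newborn neurons leave it through the IZ, a zone of migrating neurons and growing axons, on their way to the CP. Inhibitory interneurons enter the cortex from the ventral forebrain and travel tangentially, in part along the IZ and the MZ.

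Gene names could be read from 2 kinds of feature. Features called LINC-symbol-number (31776) and symbol-AS-number (22595) carry the symbol of a gene, and 12435 symbols occur among them. They are read here as noncoding transcripts named after a gene, although the sources used here do not define the names. The library protocol names no step that marks the strand, so reads of a gene and of its antisense (AS) partner cannot be told apart, and an AS level may hold messenger RNA of the gene. The 21043 features with a TSDBGID identifier are not paired with a symbol in the sources used here, and they took 98.17% to 98.44% of the counts of the 4 libraries. The LINC features took 0.8301% to 0.8857% and the AS features 0.6997% to 0.9892%. Whether a layer expressed the messenger RNA of SOX2 or another defining marker could therefore not be checked by name, and the labels were set against LINC and AS features alone.

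The OSVZ libraries held 38457348 and 34955524 counts on features and the IZ libraries 29814915 and 28205192, within the range of the series (17932690 to 102042743). In each of the 4, between 24210 and 26673 features had a count. Reads that fell on no feature took 9.496% and 11.34% in the OSVZ and 10.9% and 11.86% in the IZ. Across the features tested, log2 CPM (counts per 1000000 counts on features, scaled by the TMM factors) correlated at 0.9719 between the OSVZ libraries and at 0.9667 between the IZ libraries. Across the border the correlation was 0.9554 to 0.9672, so OSVZ 2 and IZ 2 were as much alike as the IZ libraries were. One pair of libraries in the series, VZ 2 of E28 and VZ 2 of E42, held identical counts. The E42 copy was left out of the fit, and results that use the VZ of E28 are given with and without its second library.

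At E28, 929 of 26858 features tested (3.46%) differed between the OSVZ and the IZ. More were higher in the IZ (569, 2.12%) than in the OSVZ (360, 1.34%), and the differences toward the IZ were larger. The median log2 fold change of OSVZ over IZ was 1.33 for the features higher in the OSVZ (range 0.52 to 7.27) and −1.95 for those higher in the IZ (range −8.04 to −0.56). A log2 difference above 2 was found for 42 features toward the OSVZ and 274 toward the IZ. The median over all features tested was 0. The test was edgeR's quasi-likelihood test at a Benjamini-Hochberg adjusted p of 0.05. With the replicate number as a block, 1970 features passed (7.33%), of which 916 (3.41%) stood higher in the OSVZ and 1054 (3.92%) in the IZ, and 924 of the 929 were among them. By the DESeq2 Wald test 1697 of 16960 passed (10%), 607 (3.58%) toward the OSVZ and 1090 (6.43%) toward the IZ. The 2 OSVZ values and the 2 IZ values did not overlap in any of the 929, nor in 10746 of all 26858 features tested (40%). Leaving out OSVZ 1 gave 443 calls (106 higher in the OSVZ and 337 in the IZ), OSVZ 2 gave 441 (222 and 219), IZ 1 gave 368 (70 and 298) and IZ 2 gave 562 (192 and 370). The spread was estimated over 35 libraries, and with only the 12 libraries of E28 the calls were 366, or 404 with all 36.

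**Figure D1:**
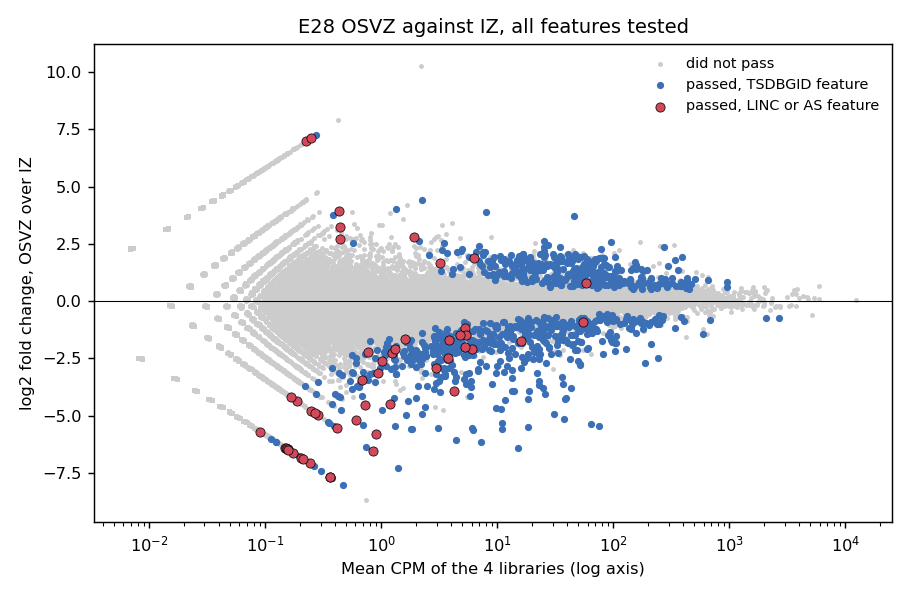
Each point is 1 of the features tested, with the mean CPM of the 4 libraries on a log axis (x) and the log2 fold change of OSVZ over IZ (y). Features that passed the test are in blue (TSDBGID) or red (LINC and AS), 360 above and 569 below the 0 line, and most red points lie below it. Streaks at low CPM are features with few or no counts in one layer, whose fitted fold depends on the prior count.

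Nearly all of the features that passed, 879 of the 929 (94.6%), carried TSDBGID identifiers. Of the 10836 LINC and AS features tested, 50 (0.461%) passed, and they named 50 different genes among the 6348 symbols tested. No symbol had 2 or more calls, although several had more features tested, such as 9 for SOX11, 6 for PLCL1, 5 for TMEM144 and 3 for SOX9. Only 9 (0.0831%) were higher in the OSVZ, 2 LINC and 7 AS features, against 41 (0.378%) higher in the IZ, 20 LINC and 21 AS features. With the replicate block these counts were 33 (0.305%) and 81 (0.748%), and all 50 were among those 114 (1.05%). By the DESeq2 Wald test they were 20 (0.587%) and 99 (2.91%), 119 of 3407 tested (3.49%).

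In the OSVZ, 4 LINC and AS features with a mean of at least 0.5 CPM were higher than in the IZ. They carry the names of SOX9, CCNB1, SVIL and ADGRG1. LINC-SOX9-15 is named after SOX9, a transcription factor of radial glia. It stood at 2.01 and 4.72 CPM in the OSVZ libraries and at 0.645 and 0.311 CPM in the IZ libraries. Both OSVZ values lay above both IZ values, although they differed from each other by more than the IZ values did. The log2 fold change was 2.80 ± 0.68 (SE, n = 2 per layer, edgeR adjusted p = 0.016). CCNB1-AS-1 bears the name of cyclin B1, which drives entry into mitosis. Its level was 10.4 and 9.61 CPM in the OSVZ and 1.87 and 3.52 CPM in the IZ. The OSVZ values were close together and well above both IZ values, and the log2 fold change was 1.89 ± 0.37 (edgeR adjusted p = 0.0021). Toward the ventricle it was higher still, with a mean of 24.4 CPM in the ISVZ and 71.0 CPM in the VZ.

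SVIL-AS-4, named after the actin-binding protein supervillin, measured 4.46 and 5.41 CPM in the OSVZ against 1.22 and 1.87 CPM in the IZ. The groups did not overlap (log2 fold change 1.67 ± 0.47, edgeR adjusted p = 0.041). ADGRG1 encodes an adhesion G protein-coupled receptor of cortical progenitors, and its mutations cause polymicrogyria in humans. ADGRG1-AS-2 reached 66.5 and 82.4 CPM in the OSVZ and 43.4 and 41.6 CPM in the IZ. This was the smallest difference of the 4 on the log2 scale, 0.81 ± 0.19 (edgeR adjusted p = 0.012). Single libraries bore on these calls. LINC-SOX9-15 had an edgeR adjusted p of 0.22 without OSVZ 2, 0.076 without IZ 1 and 0.2 without IZ 2. CCNB1-AS-1 had one of 0.12 without IZ 1 and kept its call without each of the others. SVIL-AS-4 did not pass with any of the 4 libraries left out (edgeR adjusted p = 0.1 without OSVZ 1, 0.2 without OSVZ 2, 0.42 without IZ 1 and 0.098 without IZ 2). ADGRG1-AS-2 passed only without OSVZ 1, with 0.19, 0.1 and 0.11 without OSVZ 2, IZ 1 and IZ 2.

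In the IZ, the features with the largest differences were almost absent from the OSVZ. LINC-SOX11-14 is named after SOX11, a transcription factor of newborn neurons. It had 0.0275 and 0 CPM in the OSVZ and 0.870 and 2.49 CPM in the IZ. These were 1 count in the OSVZ and 99 in the IZ, a ratio of 117 (95% exact binomial interval 20.5 to 4670). Such intervals cover counting error only, and PCR copies are counted as reads. The fitted log2 fold change was −6.57 ± 1.07 (edgeR adjusted p = 0.00046). LINC-HS3ST4-2 carries the name of a heparan sulfate sulfotransferase. Its 2 counts in the OSVZ (0.055 and 0 CPM) stood against 106 in the IZ (1.29 and 2.28 CPM), a ratio of 62.7 (95% interval 16.9 to 524, edgeR adjusted p = 0.00097). TSHZ3-AS-1, named after a zinc finger transcription factor of projection neurons, was present on both sides. It measured 0.578 and 0.782 CPM in the OSVZ and 4.06 and 6.36 CPM in the IZ. The lower IZ value was several times the higher OSVZ value, and the log2 fold change was −2.93 ± 0.52 (edgeR adjusted p = 0.00066). These 3 features kept their calls with each of the 4 libraries left out.

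A pair of features bore the names of somatostatin and one of its receptors. SST encodes the neuropeptide of a large class of interneurons. SST-AS-1 had 0 and 0.0579 CPM in the OSVZ and 1.26 and 1.11 CPM in the IZ. With 2 counts against 71 the ratio was 42 (95% interval 11.2 to 353, edgeR adjusted p = 0.013). SSTR1-AS-1, named after a somatostatin receptor, stood at 0.110 and 0.0868 CPM in the OSVZ and 2.16 and 2.38 CPM in the IZ. In both features the replicates were close and the layers far apart, and the log2 fold change of SSTR1-AS-1 was −4.48 ± 0.95 (edgeR adjusted p = 0.0053). Along the cortical wall they differed, since SST-AS-1 had its highest mean in the MZ (3.80 CPM, against 0.373 CPM in the CP) and SSTR1-AS-1 in the CP (5.55 CPM). KCND3-AS-3 carries the name of a potassium channel of the A type, which shapes firing. It had 0.138 and 0.724 CPM in the OSVZ and 1.93 and 2.18 CPM in the IZ, without overlap but with a wide spread in the OSVZ (log2 fold change −2.25 ± 0.57, edgeR adjusted p = 0.020). AKAP2-AS-2 is named after an anchoring protein of protein kinase A. Its OSVZ libraries stood far apart, at 2.06 and 0.145 CPM, and both lay under the IZ libraries at 5.00 and 7.70 CPM (log2 fold change −2.51 ± 0.60, edgeR adjusted p = 0.022). The log2 fold change was −5.42 without OSVZ 1 and −1.62 without OSVZ 2. PLCL1 encodes a relative of phospholipase C that lacks its activity. LINC-PLCL1-8 had 0.275 and 0.289 CPM in the OSVZ and 0.838 and 2.63 CPM in the IZ, so that here the IZ libraries were the ones that spread (log2 fold change −2.60 ± 0.59, edgeR adjusted p = 0.0097).

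The remaining 4 named features were C8ORF34-AS-1, LINC-TMEM132B-21, LINC-ANKRD56-1 and TMEM144-AS-1. C8ORF34-AS-1 stood at 0.605 and 0.434 CPM in the OSVZ and 6.03 and 9.81 CPM in the IZ (log2 fold change −3.92 ± 0.77, edgeR adjusted p = 0.0051). LINC-TMEM132B-21 had 0.055 and 0.0579 CPM in the OSVZ and 0.999 and 1.76 CPM in the IZ (log2 fold change −4.53 ± 1.14, edgeR adjusted p = 0.020). All 4 were low in both OSVZ libraries and higher in both IZ libraries. LINC-ANKRD56-1 had 0.220 and 0 CPM against 1.71 and 0.829 CPM (log2 fold change −3.46 ± 0.72, edgeR adjusted p = 0.0039). TMEM144-AS-1 had 0.0825 and 0.289 CPM against 1.29 and 2.07 CPM (log2 fold change −3.16 ± 0.83, edgeR adjusted p = 0.027).

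Each of the other 9 features named as higher in the IZ lost its call when single libraries were left out, and not for 1 library alone. Without OSVZ 1 the edgeR adjusted p was 0.21 for SST-AS-1, 0.077 for SSTR1-AS-1, 0.35 for KCND3-AS-3, 0.12 for LINC-PLCL1-8, 0.2 for LINC-TMEM132B-21, 0.062 for C8ORF34-AS-1 and 0.34 for TMEM144-AS-1. Without OSVZ 2 it was 0.052 for SST-AS-1, 0.093 for SSTR1-AS-1, 0.061 for AKAP2-AS-2, 0.1 for LINC-PLCL1-8, 0.17 for LINC-TMEM132B-21, 0.089 for C8ORF34-AS-1, 0.092 for LINC-ANKRD56-1 and 0.067 for TMEM144-AS-1. Without IZ 1 it was 0.056 for SST-AS-1, 0.076 for KCND3-AS-3, 0.089 for LINC-ANKRD56-1 and 0.057 for TMEM144-AS-1. Without IZ 2 it was 0.088 for KCND3-AS-3, 0.14 for AKAP2-AS-2, 0.3 for LINC-PLCL1-8, 0.097 for LINC-TMEM132B-21 and 0.14 for TMEM144-AS-1. The direction of every one of these features was the same with each library left out. Their layers did not overlap, so this outcome was fixed beforehand.

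**Figure D2:**
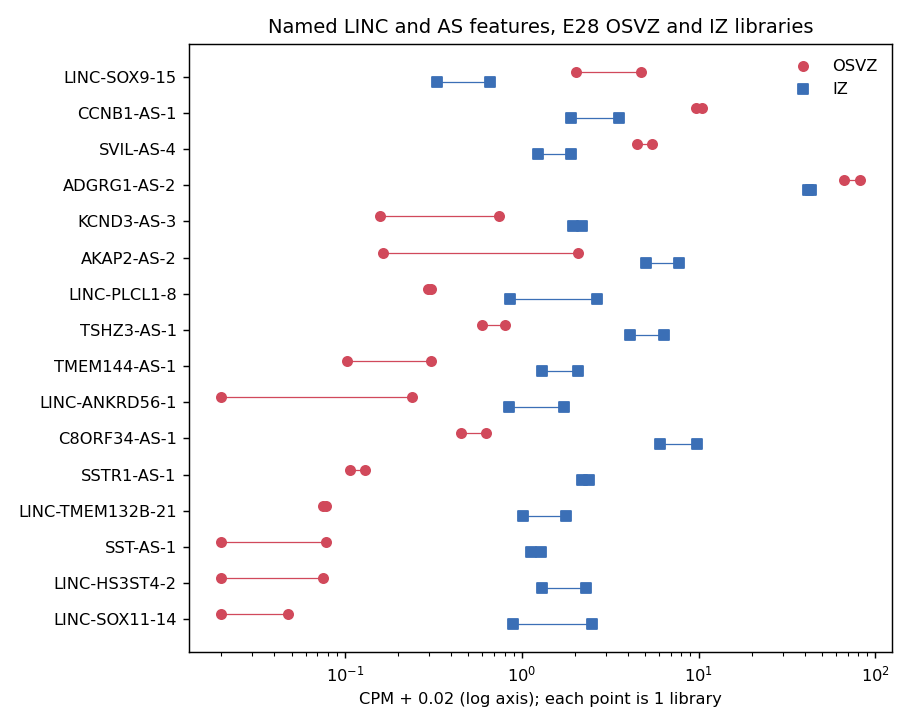
Each point is the level of 1 feature in 1 library, as CPM + 0.02 on a log axis, with the 2 OSVZ libraries as red circles and the 2 IZ libraries as blue squares joined by lines. The 4 features at the top lie to the right in the OSVZ and the other 12 in the IZ. In none of the 16 do the 2 layers overlap, because the rule for naming them required it. The lines of AKAP2-AS-2 and LINC-ANKRD56-1 show how far 2 replicates of the OSVZ could stand apart.

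Further features among the 50 were singled out after their values were seen. VLDLR-AS-2, which bears the name of a reelin receptor that guides migrating neurons, had the smallest p-value of the 50. It stood at 9.11 and 5.88 CPM in the OSVZ and 24.9 and 24.7 CPM in the IZ (log2 fold change −1.73 ± 0.24, edgeR adjusted p = 3.9e-05). MAP4 encodes a protein that binds microtubules, and its antisense feature is MAP4-AS-2. This had 39.7 and 36.6 CPM in the OSVZ and 73.1 and 72.0 CPM in the IZ (log2 fold change −0.93 ± 0.19, edgeR adjusted p = 0.0044). LINC-ANKRD43-1 had 2.78 and 1.82 CPM against 7.73 and 12.0 CPM (log2 fold change −2.09 ± 0.34, edgeR adjusted p = 0.00028). The replicates of each layer were close in VLDLR-AS-2 and MAP4-AS-2 compared with the gap between the layers. In LINC-ANKRD43-1 the layers did not overlap, but the IZ replicates spread widely. VLDLR-AS-2 and LINC-ANKRD43-1 kept their calls with each of the 4 libraries left out, and MAP4-AS-2 lost its call without OSVZ 2 (edgeR adjusted p = 0.076). Of the 41 features higher in the IZ, 6 passed in all 4 fits that leave out 1 library and 9 passed in 0 of these fits.

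On the OSVZ side, 5 of the 9 features fell under 0.5 CPM on average, and they were also chosen after their values were seen. LINC-VRK1-10, named after a mitotic kinase, had 35 counts in the OSVZ (0.330 and 0.666 CPM) and 0 in the IZ, at least 9.87-fold higher when 3 counts are set for the IZ as a group (edgeR adjusted p = 0.0053). APP-AS-5 bears the name of the amyloid precursor protein. With 32 counts against 0 it was at least 9.02-fold higher (edgeR adjusted p = 0.046). SLITRK2 and NLGN4X encode adhesion proteins of the synapse. SLITRK2-AS-1 had 1.18 and 0.434 CPM in the OSVZ and 0.0645 and 0.0345 CPM in the IZ, 58 counts against 3 and a ratio of 16.4 (95% interval 5.33 to 81.6, edgeR adjusted p = 0.034). NLGN4X-AS-2 had 1.16 and 0.463 CPM against 0.129 and 0.0345 CPM (log2 fold change 3.24 ± 0.82, edgeR adjusted p = 0.020). COLCA2-AS-1 had 0.825 and 0.724 CPM against 0.161 and 0.0691 CPM (log2 fold change 2.70 ± 0.72, edgeR adjusted p = 0.028). In all 5 both OSVZ libraries were above both IZ libraries. APP-AS-5 and COLCA2-AS-1 did not pass with any 1 of the 4 libraries left out (edgeR adjusted p = 0.11 to 0.32 and 0.084 to 0.27), LINC-VRK1-10 passed without either of the OSVZ libraries but not without an IZ library (up to 0.088), and SLITRK2-AS-1 and NLGN4X-AS-2 passed only without OSVZ 2 (elsewhere up to 0.31 and 0.27).

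In each progenitor list at most 1 feature passed. Members of this and the following lists that are given with values and did not pass were chosen after their values were seen. Of 74 features tested that bear names of radial glia and progenitor genes, 1 (LINC-SOX9-15) was higher in the OSVZ and 0 in the IZ. This was 1.35% of the list, beside 1.34% of all features and 0.0831% of LINC and AS features higher in the OSVZ. The share of the list rests on 1 feature. The median log2 fold change of the list was 0.748, beside 0 over all features tested and −0.018 over all LINC and AS features. At an unadjusted p under 0.05, 9 (12.2%) were higher in the OSVZ and 0 in the IZ, where 5.95% of all features tested and 1.77% of all LINC and AS features were higher in the OSVZ. With the replicate block, 3 passed, and LINC-SOX1-1 and PAX6-AS-1 were the additional ones, named after transcription factors that keep radial glia in the progenitor state. LINC-SOX1-1 had 2.50 and 1.74 CPM in the OSVZ and 0.838 and 0.587 CPM in the IZ (edgeR adjusted p = 0.11, and 0.042 with the block). PAX6-AS-1 had 0.440 and 0.318 CPM in the OSVZ and 0 in both IZ libraries (edgeR adjusted p = 0.058, and 0.046 with the block). The summed level of the list overlapped between the layers, at 139.48 and 270.69 CPM in the OSVZ and 98.04 and 169.47 CPM in the IZ. Summed levels, here and for the lists below, are CPM that were not scaled by the TMM factors. In bulk RNA of cut tissue, fewer cells of a type and less RNA per cell cannot be told apart.

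Basal radial glia are recognised by genes such as HOPX and PTPRZ1. Of 14 features tested that are named after genes of outer radial glia, 0 passed edgeR's quasi-likelihood test in either direction. With the block 0 passed, and by the DESeq2 Wald test 0. As 0.461% of all LINC and AS features passed, a list of 14 is too short for 0 calls to show a lack. At an unadjusted p under 0.05 there were 0 toward the OSVZ and 0 toward the IZ, and the median log2 fold change was 0. LINC-HOPX-1 had 3.19 and 1.53 CPM in the OSVZ and 1.19 and 0.207 CPM in the IZ. The groups did not overlap, but the log2 fold change of 1.74 ± 0.91 did not pass (edgeR adjusted p = 0.42). LINC-PTPRZ1-1 leaned the other way, with 0.358 and 0.232 CPM against 0.806 and 0.518 CPM (edgeR adjusted p = 0.54). TMEM132B, which the paper reports as high in basal radial glia, was not in the list. Of its 12 features tested, LINC-TMEM132B-21 passed toward the IZ. With the block LINC-TMEM132B-28 passed toward the OSVZ (edgeR adjusted p = 0.11, and 0.042 with the block). LINC-TMEM132B-5 then passed toward the IZ (edgeR adjusted p = 0.054, and 0.042 with the block).

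Intermediate progenitors express proneural factors such as NEUROG1. Of 14 features tested, 0 passed edgeR's quasi-likelihood test, the block or the DESeq2 Wald test. Beside 0.461% of all LINC and AS features, this list is also too short for 0 calls to show a lack. At an unadjusted p under 0.05 there was 1 toward the OSVZ and 0 toward the IZ, and the median was 0.284. NEUROG1-AS-1 had 3.91 and 4.52 CPM in the OSVZ and 1.74 and 1.49 CPM in the IZ (log2 fold change 1.38, edgeR adjusted p = 0.48). Of 38 cell cycle features, CCNB1-AS-1 passed higher in the OSVZ and 0 were higher in the IZ, with a median of 0.499. This 1 feature was 2.63% of the list, beside 1.34% of all features and 0.0831% of LINC and AS features higher in the OSVZ. The summed level of this list was 18.05 and 19.31 CPM in the OSVZ and 9.19 and 10.67 CPM in the IZ, and the layers did not overlap.

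Of 110 features named after transcription factors of projection neurons, 2 were higher in the IZ, LINC-SOX11-14 and TSHZ3-AS-1, and 0 in the OSVZ. These 2 were 1.82% of the list, beside 2.12% of all features and 0.378% of LINC and AS features higher in the IZ. At an unadjusted p under 0.05, 6 were higher in the OSVZ and 8 in the IZ. The median log2 fold change was 0, and the summed levels overlapped (137.01 and 197.11 CPM in the OSVZ, 150.56 and 183.44 CPM in the IZ). LINC-POU3F3-4, named after a POU transcription factor of cortical neurons, passed with the block toward the OSVZ, at 4.13 and 10.0 CPM in the OSVZ and 1.10 and 4.39 CPM in the IZ (edgeR adjusted p = 0.3, and 0.017 with the block). LINC-POU3F3-1, named after the same gene, had 60.8 and 66.8 CPM in the OSVZ and 30.3 and 45.6 CPM in the IZ (log2 fold change 0.75, edgeR adjusted p = 0.21). With the block, members of this list passed in both directions.

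Lists of neuronal excitability had medians below 0. Of 111 features named after voltage-gated channels, 3 were higher in the IZ (KCND3-AS-3, LINC-KCNA4-5 and LINC-KCNH8-6, all after potassium channels) and 0 in the OSVZ. This is 2.7% of the list, beside 2.12% of all features and 0.378% of LINC and AS features that were higher in the IZ. The median log2 fold change of the list was −0.288. LINC-KCNA4-5 had 1 count in the OSVZ and 29 in the IZ, a ratio of 34.3 (95% interval 5.68 to 1400, edgeR adjusted p = 0.023). Its mean was 0.486 CPM in the IZ, but 2.09 CPM in the VZ, 1.68 CPM in the ISVZ and 3.16 CPM in the MZ. The OSVZ (0.0138 CPM) was thus low between layers with more on both sides. LINC-KCNH8-6 had 0 counts in the OSVZ and 18 in the IZ, at least 7.09-fold higher in the IZ (edgeR adjusted p = 0.025). The summed level of the channel list was 11.10 and 20.86 CPM in the OSVZ and 30.76 and 25.85 CPM in the IZ, without overlap. Receptors for glutamate, GABA and other transmitters had the lowest median of the 13 gene lists, −0.851 over 63 features. The summed level of the receptor list was 7.51 and 11.90 CPM in the OSVZ and 17.84 and 21.56 CPM in the IZ. Neither LINC-KCNA4-5 (edgeR adjusted p = 0.068 to 0.23) nor LINC-KCNH8-6 (0.057 to 0.21) passed with any 1 library left out.

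Of the features named after adhesion genes of the synapse, 1.74% passed toward the OSVZ. This stood beside 1.34% of all features and 0.0831% of LINC and AS features higher in the OSVZ. At an unadjusted p under 0.05, 3 were higher in the OSVZ and 6 in the IZ. Of 115 features tested, SLITRK2-AS-1 and NLGN4X-AS-2 were higher in the OSVZ and 0 in the IZ, while the median was −0.165 and the summed level was lower in the OSVZ (97.98 and 132.34 CPM) than in the IZ (146.34 and 160.40 CPM). With the block, DLGAP1-AS-1 and LRRTM4-AS-4 passed higher in the IZ, so that each direction had 2. Of 63 features of cadherins and protocadherins, which hold like cells together, 0 passed edgeR's quasi-likelihood test (unadjusted p under 0.05: 1 toward the OSVZ, 4 toward the IZ), and the median was −0.312. LINC-CDH4-2 had 7.48 and 6.43 CPM in the OSVZ and 18.2 and 11.9 CPM in the IZ, with an edgeR adjusted p of 0.065, or 0.0097 with the block. By the DESeq2 Wald test 2 cadherin features were higher in the IZ and 0 in the OSVZ.

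No feature of the lists for axon guidance and migration (111 tested), extracellular matrix and integrins (77) or morphogen signalling (86) passed edgeR's quasi-likelihood test, with or without the block, and the median of each was 0. At an unadjusted p under 0.05, 0, 1 and 2 of them, in that order, were higher in the OSVZ and 3, 3 and 3 in the IZ. By the DESeq2 Wald test 1 feature of the first list and 1 of the second passed, both higher in the IZ, and 0 of the third. PLXNA4 is a receptor for guidance cues of the semaphorin family. PLXNA4-AS-9 had 103 and 149 CPM in the OSVZ and 75.9 and 110 CPM in the IZ, which overlapped. Of 332 zinc finger features, 1 passed, LINC-ZNF677-1, with 19 counts in the IZ and 0 in the OSVZ (at least 7.49-fold higher in the IZ, edgeR adjusted p = 0.028), and the median was 0. It did not pass with any 1 of the 4 libraries left out (edgeR adjusted p = 0.069 to 0.22). With the block LINC-ZNF316-2 passed as well, toward the OSVZ, at 23.3 and 17.1 CPM in the OSVZ and 11.3 and 11.8 CPM in the IZ (edgeR adjusted p = 0.18, and 0.032 with the block). Together the 18 lists held 1240 features tested, and 4 of them passed toward the OSVZ and 8 toward the IZ. These 12 were 0.968% of the members, beside 3.46% of all features and 0.461% of LINC and AS features.

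Markers of other cells that a cut layer could hold were compared in the same way. Of 32 interneuron features, SST-AS-1 passed, higher in the IZ, and 0 were higher in the OSVZ, with a median of −0.230. This 1 feature was 3.125% of the list, beside 2.12% of all features and 0.378% of LINC and AS features higher in the IZ. Their summed level was 4.73 and 4.89 CPM in the OSVZ and 11.27 and 11.03 CPM in the IZ, without overlap. Of 22 interneuron markers 20 had a feature, and those of DLX2, LHX8, SP8 and NXPH1 had 0 counts in all 4 libraries. The part of interneurons in the features higher in the IZ was not tested. Of the features for the oligodendrocyte lineage (7), endothelial cells and pericytes (10), microglia and blood (6) and Cajal-Retzius cells (11), 0 passed edgeR's quasi-likelihood test in either direction. At an unadjusted p under 0.05, 2 oligodendrocyte features were higher in the OSVZ, 2 endothelial and 1 Cajal-Retzius feature were higher in the IZ, and 0 microglial or blood features passed either way. Either way, 13.7% of all features tested and 5.66% of LINC and AS features passed at that threshold. By the DESeq2 Wald test 1 endothelial feature was higher in the IZ and 0 of the other 3 lists passed. The summed endothelial level was 0.99 and 1.52 CPM in the OSVZ and 2.28 and 3.37 CPM in the IZ, without overlap. For Cajal-Retzius cells it was 4.76 and 3.49 CPM against 8.52 and 5.03 CPM. These sums did not overlap, but only because they were not scaled by the TMM factors (0.9453 for OSVZ 1 and 1.026 for IZ 2). With that scaling OSVZ 1 would stand above IZ 2. The oligodendrocyte sums (1.35 and 0.83 CPM against 1.01 and 0.85 CPM) and those of microglia and blood (5.38 and 7.84 CPM against 5.74 and 11.91 CPM) overlapped. Every feature was at 0 in the 4 libraries for 3 of 8 oligodendrocyte markers with a feature (OLIG1, PDGFRA and CSPG4), 9 of 18 endothelial and pericyte markers (CLDN5, TEK and PDGFRB among them), 6 of 11 microglial and blood markers (CX3CR1, CSF1R, C1QA, C1QB, SPI1 and HBB) and 4 of 10 Cajal-Retzius markers (LHX1, EBF2, EBF3 and NDNF).

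Most features that differed at the border had their highest E28 level in a layer away from it. The same libraries enter the border test and these means, so the counts are a description. The same shares over all features tested were not computed, so there is no background to set them against. Of the 360 features higher in the OSVZ, 196 (54.44%) had their highest mean in the VZ, 128 (35.56%) in the ISVZ and 35 (9.722%) in the OSVZ itself. Of the 569 higher in the IZ, 258 (45.34%) were highest in the MZ, 233 (40.95%) in the CP and 69 (12.13%) in the IZ. Without VZ 2, the library that shares its counts with one of E42, the numbers were 198, 128 and 33 for the first group and 257, 232 and 67 for the second. Among the 9 LINC and AS features higher in the OSVZ, 7 were highest in the VZ, 1 in the ISVZ (SVIL-AS-4) and 1 in the MZ (APP-AS-5). Among the 41 higher in the IZ, 21 were highest in the MZ, 17 in the CP, 2 in the IZ and 1 in the VZ, or 1 each in the VZ, ISVZ and IZ without VZ 2.

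**Figure D3:**
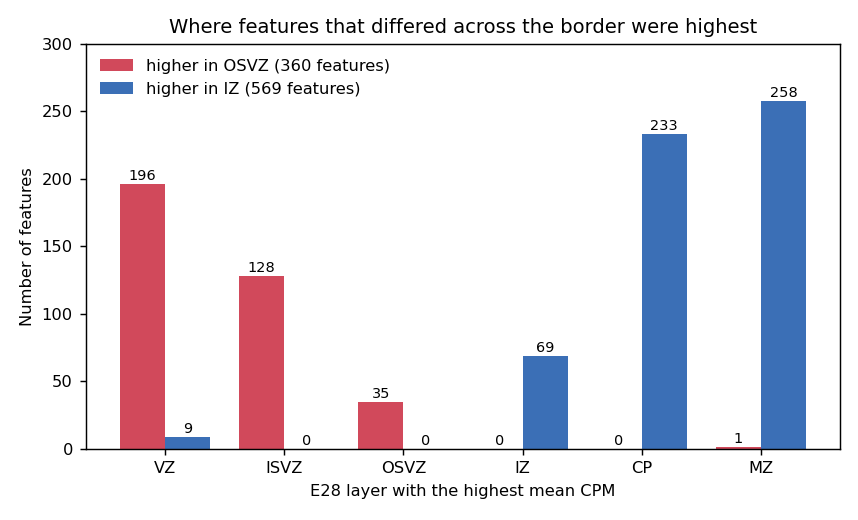
Bars count the features that differed between the OSVZ and the IZ by the E28 layer in which their mean CPM of 2 libraries was highest, with layers ordered from the ventricle outward (x) and the number of features on the y axis. The red bars, 360 features higher in the OSVZ, stand mainly at the VZ (196) and ISVZ (128), and the blue bars, 569 features higher in the IZ, at the MZ (258) and CP (233).

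Named features ran along the wall in several shapes. LINC-SOX9-15 had a lower mean in each layer outward, with means of 9.89 CPM in the VZ, 8.55 in the ISVZ, 3.36 in the OSVZ and 0.478 in the IZ, and 0.041 CPM in the CP. ADGRG1-AS-2 had a narrower range, from 94.8 CPM in the VZ to 74.5 and 74.4 CPM in the ISVZ and OSVZ, 42.5 CPM in the IZ and 33.2 CPM in the CP. On the IZ side, TSHZ3-AS-1 rose from a mean of 0.680 CPM in the OSVZ to 5.21 CPM in the IZ and 25.7 CPM in the CP, and the step from IZ to CP also passed (edgeR adjusted p = 0.002). LINC-SOX11-14 and LINC-HS3ST4-2 also had their highest means in the CP, 5.42 and 9.18 CPM. Their step from IZ to CP did not pass (edgeR adjusted p = 0.13 and 0.058). The mean of LINC-TMEM132B-21 was low at the CP, with 1.38 CPM in the IZ, 0.143 CPM in the CP and 2.32 CPM in the MZ. SST-AS-1 had means of the same shape. For both features the step from IZ to CP did not pass (edgeR adjusted p = 0.071 and 0.43).

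**Figure D4:**
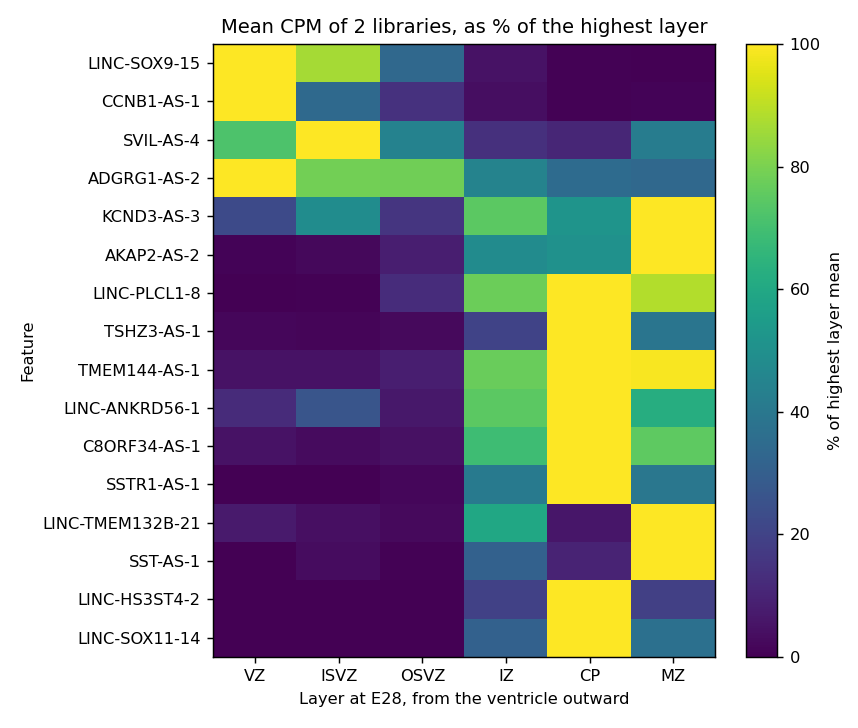
Rows are the 16 named LINC and AS features and columns the 6 layers of E28 from the ventricle outward. Colour gives the mean CPM of 2 libraries as a percentage of the row's highest layer, from 0 to 100. The top 4 rows are brightest in the VZ or ISVZ, most others in the CP or MZ, and LINC-TMEM132B-21 and SST-AS-1 are dark in the CP between brighter IZ and MZ cells.

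The calls at the 2 neighbouring borders were set beside these. Between the OSVZ and the ISVZ 2400 features (8.94%) differed by edgeR's quasi-likelihood test, with 1015 (3.78%) above in the OSVZ and 1385 (5.16%) in the ISVZ. Between the IZ and the CP 1464 (5.45%) differed, 1006 (3.75%) above in the IZ and 458 (1.71%) in the CP. Both numbers exceeded the 929 between the OSVZ and the IZ. These comparisons share libraries. Of the 360 features higher in the OSVZ than in the IZ, 229 (63.6%) were higher again in the ISVZ than in the OSVZ, 10 (2.78%) were lower in the ISVZ, and for 121 the step to the ISVZ was not called. Of the 569 higher in the IZ than in the OSVZ, 121 (21.3%) were higher again in the CP, 49 (8.61%) were lower in the CP, and for 399 (70.1%) the step to the CP was not called. The 10 features above both neighbours in the OSVZ and the 49 above both in the IZ all carried TSDBGID identifiers. ADCYAP1-AS-2, after the neuropeptide PACAP and chosen after its values were seen, had its highest mean in the OSVZ, at 9.79 and 11.7 CPM against 1.26 and 3.32 CPM in the IZ, and its edgeR adjusted p was 0.051, or 0.013 with the replicate block.

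Of the features without a symbol, TSDBGID.24889 and TSDBGID.21623 had the largest differences toward the OSVZ among those with a mean of at least 5 CPM. The first stood at 10.4 and 19.8 CPM in the OSVZ and 0.645 and 1.42 CPM in the IZ (log2 fold change 3.87 ± 0.66, edgeR adjusted p = 0.00082). The second stood at 96.7 and 74.0 CPM against 4.03 and 8.98 CPM (log2 fold change 3.71 ± 0.82, edgeR adjusted p = 0.014). Both were highest in the ISVZ, with means of 24.8 and 133 CPM. TSDBGID.13886 and TSDBGID.1568 had the largest differences toward the IZ. TSDBGID.13886 was at 0.248 and 0.463 CPM in the OSVZ and 30.8 and 29.4 CPM in the IZ (log2 fold change −6.40 ± 0.75, edgeR adjusted p = 3.9e-05). TSDBGID.1568 was at 0.055 and 0.347 CPM against 19.5 and 8.95 CPM (log2 fold change −6.14 ± 0.80, edgeR adjusted p = 0.00012), and both were highest in the CP. TSDBGID.21623 had an edgeR adjusted p of 0.07 without OSVZ 1, 0.22 without IZ 1 and 0.057 without IZ 2, and the other 3 kept their calls with each library left out.

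The values at E42 come from other libraries than those of the E28 OSVZ and IZ, but both stages share the fit and its estimate of the spread. There 2483 of the 26858 features (9.24%) differed, 1034 (3.85%) toward the OSVZ and 1449 (5.4%) toward the IZ. Of the LINC and AS features 168 (1.55%) differed, 58 (0.535%) and 110 (1.02%). Of the 360 features higher in the OSVZ at E28, 346 (96.11%) had the same sign at E42, where 52.07% of all features tested had a positive sign. Of these 360, 248 (68.89%) also passed in that direction at E42, 23.98% of the E42 list, and 3 passed in the other direction. Of the 569 higher in the IZ, 527 (92.62%) had the same sign and 405 (71.18%) passed in that direction, 27.95% of the E42 list, and 1 passed in the other. The median log2 fold change of the 360 was 1.33 at E28 and 1.17 at E42. Among the LINC and AS features, 8 of the 9 and 37 of the 41 kept their sign, 4 and 21 passed again, and 0 passed in the other direction. Their median log2 fold changes were nearer to no difference at E42. The median of the 9 was 2.80 at E28 and 1.17 at E42, and that of the 41 was −4.48 and −1.75.

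CCNB1-AS-1 differed by almost the same amount at both stages (log2 fold change 1.93 at E42, edgeR adjusted p = 0.00073), as did VLDLR-AS-2 (−1.49, edgeR adjusted p = 6.3e-05). ADGRG1-AS-2 and SVIL-AS-4 also passed at E42 (1.17, edgeR adjusted p = 1e-04, and 2.12, edgeR adjusted p = 0.0027), while LINC-SOX9-15 had 1.84 (edgeR adjusted p = 0.063). The E42 log2 fold change of TSHZ3-AS-1 was −4.73 (edgeR adjusted p = 6.7e-07). LINC-HS3ST4-2 had 0 counts in the E42 OSVZ and 287 in the E42 IZ, at least 73-fold higher in the IZ. SSTR1-AS-1 passed again (−2.86, edgeR adjusted p = 0.028), and SST-AS-1 did not (−1.33, edgeR adjusted p = 0.47). None of these features passed the test of a change of the difference between the stages.

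**Figure D5:**
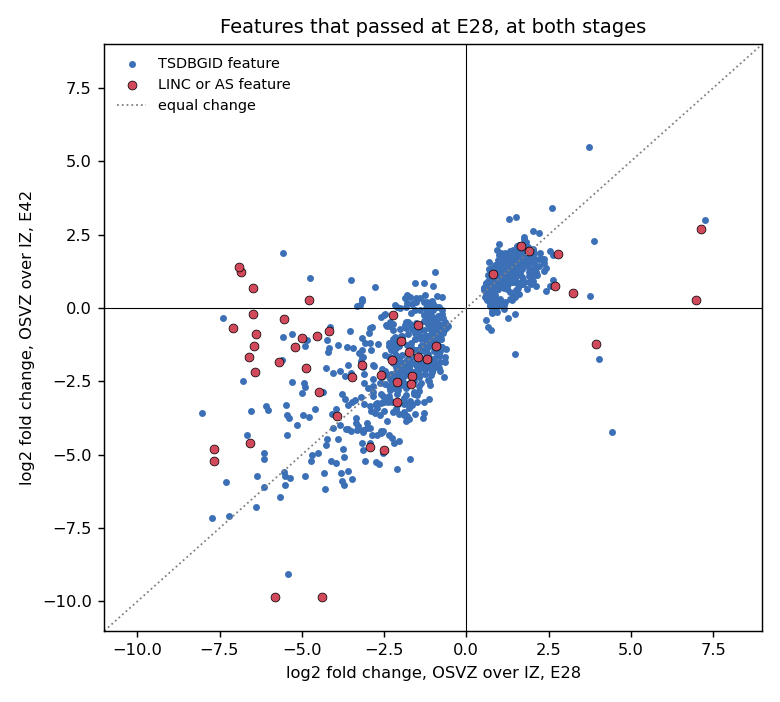
Each point is 1 of the 929 features that passed at E28, with its log2 fold change of OSVZ over IZ at E28 (x) and at E42 (y), in blue for TSDBGID and red for LINC and AS features. The dotted line marks equal values. Most points lie in the lower left and upper right, where the sign was the same at both stages (527 and 346 features), and the red points far to the left with values near 0 at E42 are features with few counts at E28.

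The test of the change itself, the OSVZ to IZ difference at E42 less that at E28, passed for 128 features (0.477%). In 31 (0.115%) the difference moved toward the OSVZ and in 97 (0.361%) toward the IZ. Of the 97, 94 were higher in the IZ at E42. At E28, 17 of the 97 had been higher in the IZ already and 4 had been higher in the OSVZ. Only 7 of the 128 were LINC and AS features (0.0646% of those tested), 1 toward the OSVZ (0.00923%) and 6 toward the IZ (0.0554%). PFKP-AS-1, after the platelet form of the glycolytic enzyme phosphofructokinase, had 0.853 and 0.376 CPM in the OSVZ and 1.55 and 1.62 CPM in the IZ at E28. At E42 it had 0.155 and 0.672 CPM in the OSVZ and 24.1 and 28.3 CPM in the IZ, a change of −4.53 ± 0.78 on the log2 scale (edgeR adjusted p = 0.0058). The late IZ libraries alone were high. LINC-HINT1-9, LINC-HIS-71-7, LINC-LORF2-107, LINC-PLIN3-8 and LINC-PRMT8-1 also moved toward the IZ, with log2 changes between −7.14 and −1.78. With 1 of the 8 libraries left out in turn they kept the call in 4, 5, 3, 2 and 3 of the 8 fits, in that order. The change of LINC-HINT1-9 was −3 without OSVZ 1 of E28 (edgeR adjusted p = 1), and the highest edgeR adjusted p of the other 4 lay between 0.079 (LINC-HIS-71-7, without OSVZ 1 of E42) and 0.18 (LINC-PLIN3-8, without the same library). LINC-NEBL-1 moved toward the OSVZ. It had 0.0275 and 0 CPM in the OSVZ and 0.773 and 0.864 CPM in the IZ at E28, and at E42 2.59 and 2.34 CPM against 2.72 and 3.63 CPM, so the layers were apart at the early stage and close at the late one. The change was 5.18 ± 1.17 (edgeR adjusted p = 0.034), and it did not pass with any 1 of the 8 libraries left out (edgeR adjusted p = 0.065 to 0.22). PFKP-AS-1 kept its change in 7 of the 8 fits and lost it without OSVZ 1 of E28 (edgeR adjusted p = 0.09). Over the 8 fits the number of features with a change lay between 35 and 106.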

How the data were processed

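The authors captured layers with a Leica laser microdissection system, extracted RNA with the miRNeasy kit and made poly-A libraries with the VAHTS mRNA-seq V3 kit. Adapters were trimmed, HISAT 2.1.0 aligned the reads to the tree shrew genome, and features were counted with HTSeq-count on the TS_3.0 annotation. The strand setting is not given in the sources used here. The deposited values are raw counts per feature, 1 file per library, which the authors did not normalize. Of all HTSeq lines of the 4 libraries, 55.60% to 58.27% fell on features and 17.18% to 18.43% were ambiguous. The summary lines were removed, and 3 counts equal 0.078 to 0.106 CPM in these libraries.

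Groups came from the labels. In R 4.3.3, edgeR 4.0.16 fitted 35 libraries in 18 layer-by-stage groups (17 residual degrees of freedom), after filterByExpr (minimum count 10) and TMM scaling. The robust quasi-likelihood test was used, with Benjamini-Hochberg adjustment over all 26858 features tested. E42 VZ 2 was left out because its counts equal those of E28 VZ 2. The authors' test was the DESeq2 Wald test, which was run as an alternative (DESeq2 1.42.0). Replicates of one layer differed beyond sampling noise (chi-square per degree of freedom 51.15 for the OSVZ and 47.9 for the IZ). On simulated data for the E28 border, 200 of 23385 features were changed by 2 on the log2 scale. They were drawn from features with a higher mean level than many LINC and AS features have. Of them 71.5% were recovered, with 5 false calls. The rate does not cover features near the limit of depth, and the simulation held no replicate pairing.

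The labels do not say what the replicate number marks. Deviations from the group means of same-numbered libraries correlated at 0.1652 to 0.2604 in 15 of 15 pairs of layers at E28 (0.1985 for the OSVZ and IZ), so the number was taken to pair the libraries there, and blocked values are printed where they change a call or a count by over 1.5 times, apart from list members not reported here. At E42 the value for the OSVZ and IZ was −0.01342, and those libraries were not taken as paired.

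The comparison, the gene lists and the rule for named features were chosen with earlier results of these data known. The rule took LINC and AS features that passed with a mean of at least 0.5 CPM and no overlap, 1 per symbol, up to 12 per direction by log2 fold change (4 remained for the OSVZ). It also took list members that passed at 0.5 CPM or more, up to 4 per list, and 2 TSDBGID features per direction with at least 5 CPM. Plots were drawn with matplotlib 3.10.9. Alternatives were no filter, DESeq2 size factors, other sets of libraries, a fold threshold, the replicate block, the DESeq2 Wald test and single libraries left out. The fits with other copies of the VZ library were chosen after seeing the data. Sequences and coordinates were not used here. A few list members are not reported here.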

Additional observations from a re-analysis of the deposited data

Results flagged for a closer look

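At 2 stages the same border could be compared, and the test of the difference between them (edgeR's quasi-likelihood test of the E42 difference less the E28 difference) passed for 128 features. Of these, 31 moved toward the OSVZ and 97 toward the IZ, and 121 carried TSDBGID identifiers. Among the LINC and AS features that differed at E28, LINC-NEBL-1, named after the actin-binding protein nebulette, was the one with such a change (edgeR adjusted p = 0.034). With 1 count in the E28 OSVZ and 49 in the E28 IZ, the ratio at E28 was 57.9 (95% interval 9.92 to 2330, edgeR adjusted p = 0.00066), and that call was kept with each of the 4 libraries left out. At E42 the log2 fold change was −0.36 (edgeR adjusted p = 0.82), while the level of both layers lay between 2.34 and 3.63 CPM. The change itself did not pass with any 1 of the 8 libraries left out.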

How the results depend on the processing

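Of 240 values of the 20 named features under 12 settings, 179 kept their call, 61 lost it and 0 reversed. The layers did not overlap in any named feature, so leaving out 1 library could not reverse a direction. The other settings used the same counts. The calls of LINC-SOX11-14, LINC-HS3ST4-2, TSHZ3-AS-1, TSDBGID.13886 and TSDBGID.1568 were kept under all 12. The counts moved more. Fitting all 36 libraries gave 404 calls at E28, 23 of them LINC and AS features, and 44 changes between stages. Keeping the E42 copy of the shared VZ library in place of the E28 copy gave 372, 22 and 44, with 26.6% of the E28 calls higher in the OSVZ against 38.8%, and leaving out both copies gave 914 and 48 at E28. These last 2 fits were chosen after seeing the data. Only the 12 libraries of E28 gave 366 and 11, and only the libraries compared gave 1272 at E28 (757 of the 929 shared), 3790 at E42 and 297 changes. The DESeq2 Wald test gave 1697 and 119 at E28 (927 of the 929 shared) and 406 changes, and no filter on low counts gave 386 changes. With the replicate block, the pairing gave 1970 and 114 at E28, 4147 at E42 and 443 changes, and it ended the call of 0 of the 20 named features. With single libraries left out, the E28 calls ranged from 368 to 562, the LINC and AS calls from 17 to 27, the E42 calls from 1197 (without IZ 1) to 1735 (without OSVZ 2) and the changes from 35 to 106. The LINC and AS calls were 17 without OSVZ 1, 19 without OSVZ 2, 17 without IZ 1 (0 of them higher in the OSVZ) and 27 without IZ 2. At E42, leaving out OSVZ 1 gave 1285 and IZ 2 gave 1555. The share of E28 calls higher in the OSVZ ran from 19% (without IZ 1) to 50.3% (without OSVZ 2). The cause of these shifts was not tested. Most LINC and AS features lie near the limit of depth, where 3 counts are 0.078 to 0.106 CPM.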
